A study of Mus musculus with 8 samples.

Results

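The matrix metalloproteinases (MMPs), the ADAMTS proteases, the ADAMTS-like proteins and the tissue inhibitors of metalloproteinases (TIMPs) were followed through RNA of mouse colon epithelial cells. The families were chosen with earlier results of these data known, and their members by gene symbol. Every gene with 1 platform symbol of the form Mmp, Adamts, Adamtsl or Timp followed by its number was taken. This gave 48 of the 19505 genes on the array, namely 21 MMPs, 18 ADAMTS proteases, 5 ADAMTS-like proteins and 4 TIMPs, each with 1 probe set row. The samples came from C57BL/6J mice in 4 groups of 2 arrays each. These were SMS2 knockout (KO) mice given 3.5% dextran sulfate sodium (DSS) in their drinking water for 2 days, untreated SMS2 KO mice, wild-type (WT) mice given the same DSS, and untreated WT mice. All groups shared the strain and free access to food. SMS2 (gene Sgms2) makes sphingomyelin, a membrane lipid, and DSS is a polymer that injures the colon lining of mice. The labels call the arrays of a group biological replicates and do not give the deleted part of Sgms2, the age or sex of the mice, or whether 1 animal or a pool stands behind an array.

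MMPs are zinc-dependent proteases that cut collagens, basement membrane and other matrix proteins, and they are made as inactive precursors. ADAMTS proteases are secreted relatives that cut proteoglycans such as versican and aggrecan or trim procollagens, while ADAMTS-like proteins share their binding domains and have no protease domain. TIMPs bind the active sites of these enzymes. TIMP2 has a further role: held by MMP14 on the cell surface, it docks the precursor of MMP2, which a neighbouring MMP14 then activates. In the gut most MMPs and TIMPs are known as products of connective tissue and immune cells, with MMP7 as an epithelial enzyme.

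Values are the signals that the authors deposited, taken as log2 from their range, so that a difference of 1 is a 2-fold change. Background was set on each array at the 75th percentile of its 5222 negative control rows, and lay between 6.00 and 6.24. Sgms2 measured 7.35 and 6.47 on the KO DSS arrays and 7.30 and 7.33 on the KO untreated arrays, against 11.27 and 10.90 on the WT DSS arrays and 10.79 and 10.76 on the WT untreated arrays, so each array followed its genotype label. The 10 epithelial markers were bright on all arrays, with list means between 16.4 and 16.8. Markers of other cells were present as well, and some moved between groups. The mean of 9 fibroblast markers was 11.59 and 10.71 with DSS in KO, 9.50 and 9.22 untreated in KO, 10.64 and 11.32 with DSS in WT, and 7.80 and 8.13 untreated in WT. A pair of DSS arrays stood apart: exocrine pancreas markers averaged 11.04 on WT DSS replicate 1 and 6.54 on KO DSS replicate 1, against 4.60 to 4.99 on the other 6 arrays. The 3 Y-linked transcripts found averaged 8.99 to 9.95 on the 4 DSS arrays and 3.75 to 3.90 on the 4 untreated arrays. The DSS arrays thus held male RNA, while the values of the untreated arrays were under background. DSS and sex therefore cannot be told apart in any DSS comparison below.

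Of the 48 members, 5 were above background on all 8 arrays (Mmp2, Mmp14, Timp2, Adamtsl4 and Adamtsl5), 10 on some and 33 on none. The signals of those 33 lay between 3.14 and 6.10 and give only upper limits. A filter that left out the lowest 33.3% of genes by mean signal kept 20 members for testing (7 MMPs, 5 ADAMTS, 5 ADAMTS-like and 3 TIMPs) and left out 28. Each comparison was fitted with limma on all 8 arrays and 13003 genes, and p-values were adjusted by Benjamini-Hochberg over those genes, with 0.05 as the threshold.

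**Figure D1:**
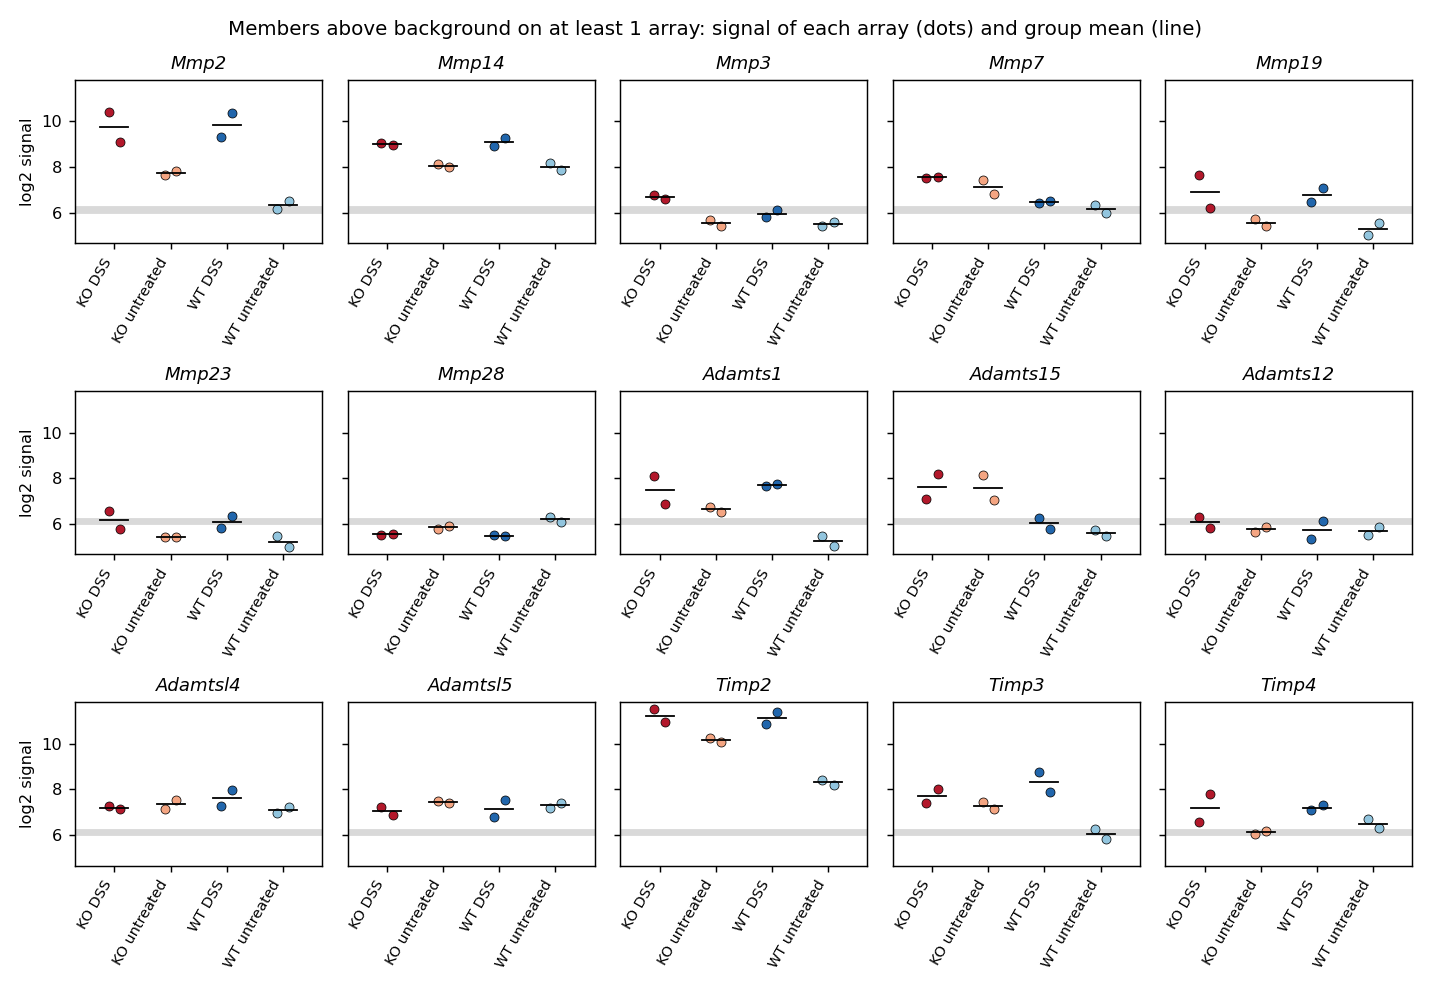
Log2 signal (y axis) of the 15 members that exceeded background on at least 1 array, by group (x axis); dots are single arrays, lines are group means of 2 arrays, and the grey band spans the background of the 8 arrays. Mmp2, Timp2, Timp3 and Adamts1 are lowest on the WT untreated arrays, while Adamts15 and Mmp7 are higher on all KO arrays than on all WT arrays.

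With DSS, 5 of the 20 tested members rose in WT cells: the inhibitors Timp2 and Timp3, the gelatinase Mmp2, the membrane protease Mmp14 and the proteoglycan-cleaving Adamts1. None fell. Over all 13003 genes, 2.91% were called higher and 1.12% lower in the same comparison. Mmp14, Timp2 and Mmp2, the 3 genes whose proteins form the surface complex described above, were thus all among those that rose. In KO cells no member passed with limma, where 0.931% of all genes were called in either direction. At an unadjusted p under 0.05 and with no filter, 13 of the 48 members were higher and 1 was lower in KO cells, beside 4.16% and 4.0% of all genes. Some KO sizes turned on single arrays, and each of the next fits kept 1 KO DSS array. Without KO DSS replicate 2, the array with pancreas markers was kept. The DSS difference in KO was then 2.66 for Mmp2, 1.44 for Adamts1, 1.32 for Timp2 and 0.43 for Timp4. Without KO DSS replicate 1 these were 1.37, 0.25, 0.79 and 1.68 in turn. Other members moved little: Mmp14 was at 0.98 without replicate 2 and 0.92 without replicate 1, and Mmp7 at 0.40 and 0.43. Averaged over genotypes, 7 members rose with DSS and none fell, Mmp3 and Mmp19 joining the first 5, beside 3.47% of all genes called higher and 2.05% called lower.

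The promoters of the called members for which RefSeq (GRCm38.p6) gave a sequence are shown because these genes moved in the same direction. Each runs from 250 bases before to 50 bases after the gene start, on the gene's strand, at chr11:118355362-118355661 (minus strand) for Timp2, chr10:86300162-86300461 (plus) for Timp3, chr14:54431348-54431647 (plus) for Mmp14 and chr16:85803064-85803363 (minus) for Adamts1. Capitals mark the letters of 3 motifs, searched on both strands: the AP-1 motif (TGACTCA or TGAGTCA), the TATA motif (TATAAA or TTTATA) and the GC box (GGGCGG or CCGCCC). Neighbouring matches may touch.
Timp2: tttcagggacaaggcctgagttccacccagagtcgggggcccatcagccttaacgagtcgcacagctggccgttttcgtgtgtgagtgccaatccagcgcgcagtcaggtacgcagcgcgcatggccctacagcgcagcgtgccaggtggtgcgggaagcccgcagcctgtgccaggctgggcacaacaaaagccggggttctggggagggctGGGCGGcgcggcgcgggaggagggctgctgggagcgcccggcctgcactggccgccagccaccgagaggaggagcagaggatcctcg
Timp3: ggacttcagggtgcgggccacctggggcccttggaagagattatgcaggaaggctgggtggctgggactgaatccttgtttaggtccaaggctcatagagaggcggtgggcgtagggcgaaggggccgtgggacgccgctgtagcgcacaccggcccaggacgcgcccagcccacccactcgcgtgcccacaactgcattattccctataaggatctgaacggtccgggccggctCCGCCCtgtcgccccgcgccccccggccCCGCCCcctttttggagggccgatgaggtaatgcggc
Mmp14: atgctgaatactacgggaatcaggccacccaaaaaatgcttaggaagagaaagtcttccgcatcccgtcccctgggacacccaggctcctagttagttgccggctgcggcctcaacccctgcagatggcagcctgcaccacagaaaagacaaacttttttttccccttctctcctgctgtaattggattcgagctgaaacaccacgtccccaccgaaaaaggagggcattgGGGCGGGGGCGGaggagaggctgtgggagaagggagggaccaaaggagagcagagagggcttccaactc
Adamts1: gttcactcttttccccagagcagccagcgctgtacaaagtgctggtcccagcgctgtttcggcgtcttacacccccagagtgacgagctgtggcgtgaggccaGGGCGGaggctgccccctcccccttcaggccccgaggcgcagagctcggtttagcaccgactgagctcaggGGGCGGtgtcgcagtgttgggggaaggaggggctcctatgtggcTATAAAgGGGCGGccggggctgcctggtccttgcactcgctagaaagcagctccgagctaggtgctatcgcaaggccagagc
All 4 windows held a GC box, Adamts1 held a TATA motif as well, and none held the AP-1 letters. A GC box was found in 35.7% of all 32851 mouse promoters of this length, a TATA motif in 13.6% and an AP-1 motif in 5.2%. A match describes letters in this window and shows no binding.

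Among the inhibitors, Timp2 passed in 3 of the 6 planned comparisons. It measured 11.50 and 10.97 with DSS and 10.27 and 10.09 untreated in KO cells, against 10.87 and 11.37 with DSS and 8.43 and 8.21 untreated in WT cells. The WT untreated arrays were the lowest, the KO untreated arrays lay between, and the DSS arrays of both genotypes overlapped at the top. In limma the DSS difference in WT was 2.80 ± 0.27 (SE, adjusted p = 0.000153), and that in KO was 1.06 ± 0.27 (adjusted p = 0.13). Without DSS, Timp2 was higher in KO than in WT by 1.86 ± 0.27 (adjusted p = 0.0176), the single member of 20 called there, where 0.338% of all genes were called higher. This call was lost, with adjusted p up to 0.175, when any 1 of the 4 untreated arrays was left out. With DSS the genotype difference was 0.11, with a 95% interval from -0.48 to 0.71.

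Timp3, an inhibitor that stays bound to the matrix and also acts on ADAMTS enzymes, measured 7.42 and 8.03 with DSS and 7.43 and 7.15 untreated in KO cells, against 8.77 and 7.90 with DSS and 6.28 and 5.84 untreated in WT cells. Its WT arrays separated clearly by treatment, 1 WT untreated array being under background, and its KO arrays overlapped. The DSS difference was 2.27 ± 0.33 in WT (limma, adjusted p = 0.00234) and 0.43 ± 0.33 in KO (adjusted p = 0.774). Timp4, known mainly from heart, measured 6.56 and 7.81 with DSS and 6.06 and 6.20 untreated in KO cells, against 7.08 and 7.34 with DSS and 6.69 and 6.33 untreated in WT cells. Treated and untreated arrays did not overlap within a genotype, yet neither difference passed: 1.06 ± 0.35 in KO (limma, adjusted p = 0.294), where 1 of the 2 untreated arrays was above background, and 0.70 ± 0.35 in WT (adjusted p = 0.382). Without both pancreas-marked DSS arrays the Timp4 difference was 1.68 in KO and 0.83 in WT, each resting on 1 DSS array. The part of the pancreas RNA in these values was not tested. Timp1, the inhibitor most often reported in injured tissue, was under background on every array, at 3.60 to 4.54.

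The gelatinase Mmp2, which digests denatured collagen and basement membrane collagen, had the largest fitted DSS difference of any tested member. Its signals were 10.41 and 9.12 with DSS and 7.64 and 7.85 untreated in KO cells, against 9.32 and 10.37 with DSS and 6.18 and 6.54 untreated in WT cells. All 4 DSS arrays exceeded all 4 untreated arrays, and the KO untreated arrays exceeded the WT untreated arrays. The DSS difference was 3.48 ± 0.42 in WT (limma, adjusted p = 0.000664) and 2.02 ± 0.42 in KO (adjusted p = 0.0512). Untreated KO exceeded untreated WT by 1.38 ± 0.42 (adjusted p = 0.307). Mmp9, the gelatinase of neutrophils and macrophages, lay under background on all arrays at 4.23 to 5.14. Of 6 neutrophil markers, 5 were above background on no array, while Elane was above it on all 8, at 6.50 to 6.89.

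Of the 5 membrane-type MMPs measured, Mmp14 alone was above background. It cuts collagen at the cell surface and activates MMP2. Mmp14 measured 9.04 and 8.99 with DSS and 8.14 and 7.99 untreated in KO cells, against 8.94 and 9.29 with DSS and 8.18 and 7.86 untreated in WT cells. Both genotypes showed the same separation by treatment, and KO and WT arrays overlapped within each treatment. The DSS difference was 1.10 ± 0.24 in WT (limma, adjusted p = 0.0247), 0.95 ± 0.24 in KO (adjusted p = 0.122) and 1.02 ± 0.17 averaged over genotypes (adjusted p = 0.00387). The call in WT was lost, with adjusted p up to 0.211, without WT DSS replicate 2 or without either WT untreated array, while the averaged call passed under each alternative tried. Without DSS, KO and WT differed by 0.05, with a 95% interval from -0.47 to 0.57.

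Adamts1, which cleaves versican and aggrecan, measured 8.08 and 6.89 with DSS and 6.75 and 6.52 untreated in KO cells, against 7.66 and 7.73 with DSS and 5.48 and 5.03 untreated in WT cells. Only the WT untreated arrays were under background, so differences from them are bounds. Adamts1 was at least 2.95-fold higher with DSS in WT (limma, adjusted p = 0.00203). Untreated KO was at least 1.41-fold above untreated WT, which did not pass (adjusted p = 0.165). In KO the DSS difference was 0.85 ± 0.35 (adjusted p = 0.446). It was 0.25 without KO DSS replicate 1 and 1.44 without replicate 2, each resting on 1 KO DSS array. The aggrecanases Adamts4 and Adamts5 were under background on every array, at 3.79 to 4.90 and 3.74 to 4.78.

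**Figure D2:**
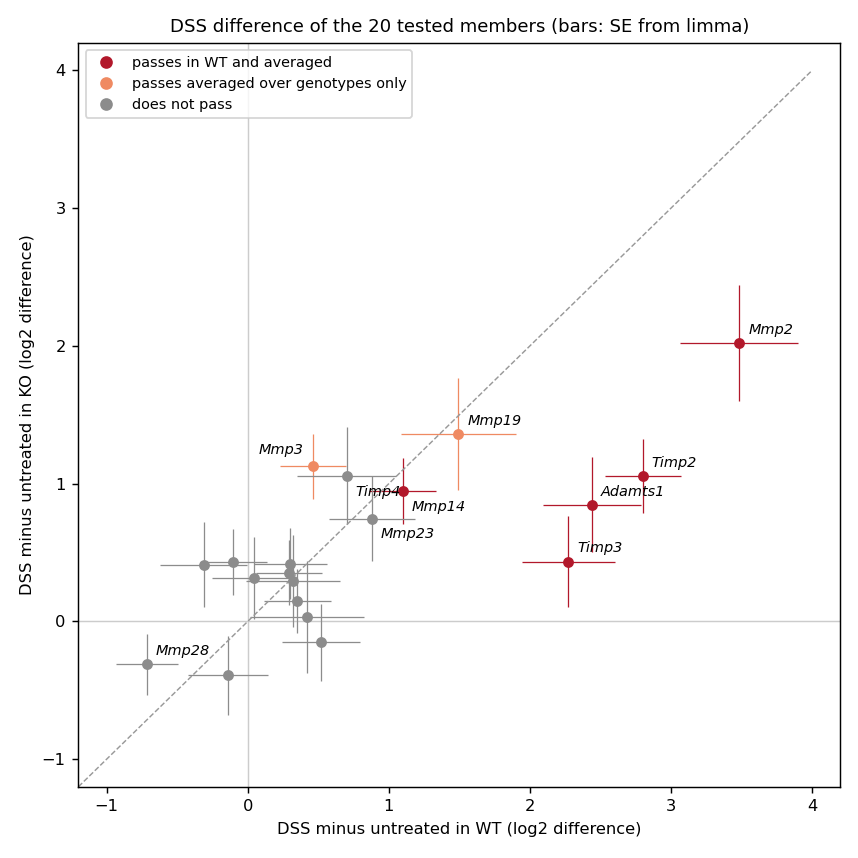
Fitted DSS difference of the 20 tested members in WT (x axis) against KO (y axis), in log2 units with SE bars; the dashed line marks equal differences and colours mark which limma tests were passed. Mmp2, Timp2 and Timp3 lie to the right of the line, with differences in WT from 2.27 to 3.48, and Mmp14 lies on it within its errors. Points of genes under background in a group, among them Adamts1, Mmp19, Mmp3 and Mmp23, are fitted values whose size is not measured.

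The fitted DSS differences of Timp2, Timp3, Mmp2 and Adamts1 were smaller in KO than in WT, but the difference between the differences did not pass for any member. The interaction was -1.74 ± 0.38 for Timp2 (limma, adjusted p = 0.249), -1.84 ± 0.46 for Timp3 (adjusted p = 0.351) and -1.46 ± 0.59 for Mmp2 (adjusted p = 0.844). For Adamts1 no size is given, since its WT untreated arrays were under background (adjusted p = 0.521). None of the 20 tested members was called, beside 0.0769% of all genes. At an unadjusted p under 0.05 and with no filter these 4 were lower and 1 of the 48 was higher (Adamts16, under background throughout), beside 3.03% and 2.21% of all genes. Without DSS the KO mean lay above the WT mean for each of these 4 genes, as for 32 of the 48 members and 46.7% of all genes. This contrast shares the untreated arrays with the interaction. Leaving out both pancreas-marked arrays brought 2 interactions past the threshold, with 1 DSS array left in each genotype: -2.26 for Timp2 (adjusted p = 0.0329) and -2.64 for Mmp2 (adjusted p = 0.0284). Under the same exclusion Timp3 was at -1.10 (adjusted p = 0.344), and Adamts1 did not pass (adjusted p = 0.0506).

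Markers of some other cells moved with these genes. Of the 9 fibroblast markers, 7 rose with DSS in WT, 5 in KO, and 2 were higher in KO without DSS. Of the 6 macrophage markers tested, 5 rose with DSS in WT and 4 in KO, the mean of the 7 on the array being 8.29 and 7.41 with DSS and 6.40 and 6.06 untreated in KO cells, against 7.28 and 7.66 with DSS and 5.39 and 5.50 untreated in WT cells. Of the 7 endothelial markers, 5 rose with DSS in WT, 3 in KO, and 1 was higher in KO without DSS. None of the 8 smooth muscle markers passed in limma in any comparison, but without DSS all 8 were higher in KO at an unadjusted p under 0.05, with means of 13.13 and 13.33 in KO and 10.75 and 11.79 in WT. None of the 3 T cell and 2 enteric glia markers tested passed in limma in any comparison. At an unadjusted p under 0.05, 3 T cell markers were higher with DSS in WT and 2 glia markers with DSS in KO. The part of all these cells in the members' differences was not tested. In bulk RNA, more cells of a type and more RNA per cell cannot be told apart.

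The stromelysin Mmp3, which degrades many matrix proteins and activates other proMMPs, passed when DSS was averaged over genotypes. It measured 6.77 and 6.59 with DSS and 5.69 and 5.42 untreated in KO cells, against 5.82 and 6.11 with DSS and 5.41 and 5.60 untreated in WT cells. Only the KO DSS arrays were above background, so the averaged call (limma, adjusted p = 0.0166) has no measured size in WT. In KO the DSS arrays were at least 1.43-fold above the untreated ones (adjusted p = 0.0528), and with DSS the KO arrays were at least 1.47-fold above the WT ones (adjusted p = 0.34), neither of which passed. Mmp10, a close relative, was under background throughout, at 3.58 to 4.34.

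Mmp19, a protease of basement membrane proteins, measured 7.64 and 6.22 with DSS and 5.74 and 5.40 untreated in KO cells, against 6.48 and 7.07 with DSS and 5.02 and 5.55 untreated in WT cells. Every DSS array was above background and every untreated array was below it. Averaged over genotypes Mmp19 was at least 1.63-fold higher with DSS (limma, adjusted p = 0.0138), with bounds of 1.71-fold in KO (adjusted p = 0.225) and 1.56-fold in WT (adjusted p = 0.0737). The averaged calls of Mmp19 and Mmp3 were lost without WT untreated replicate 1, WT DSS replicate 2 or KO untreated replicate 2, with adjusted p up to 0.0712 for Mmp19 and 0.0982 for Mmp3. Mmp28, also called epilysin and known from epithelia, was the tested MMP with lower signals after DSS. It measured 5.54 and 5.56 with DSS and 5.79 and 5.93 untreated in KO cells, against 5.51 and 5.46 with DSS and 6.32 and 6.08 untreated in WT cells. A single array, WT untreated replicate 1, was above background, so no size is given, and the averaged DSS difference did not pass (limma, adjusted p = 0.0889).

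In 2 members all 4 KO arrays exceeded all 4 WT arrays and in none did they lie wholly below, where 1.89% and 2.33% of all genes did so. Adamts15, another proteoglycan-cleaving enzyme, measured 7.07 and 8.18 with DSS and 8.14 and 7.04 untreated in KO cells, against 6.24 and 5.80 with DSS and 5.73 and 5.47 untreated in WT cells. Of the 4 WT arrays, 1 was above background, and the KO arrays varied among themselves by about 1 under either treatment. Without DSS the KO arrays were at least 2.75-fold above the WT arrays (limma, adjusted p = 0.0782), and with DSS, where 1 of the 2 WT arrays was above background, they were higher by 1.60 ± 0.41 (adjusted p = 0.178). Mmp7, or matrilysin, measured 7.54 and 7.57 with DSS and 7.43 and 6.84 untreated in KO cells, against 6.42 and 6.51 with DSS and 6.34 and 5.99 untreated in WT cells. Again no KO array overlapped a WT array, and the differences were 1.09 ± 0.26 with DSS (limma, adjusted p = 0.145) and 0.97 ± 0.26 without (adjusted p = 0.209), where 1 of the 2 WT arrays was above background.

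Neither gene passed within a treatment. No member passed between KO and WT with DSS, where 0.354% of all genes were called, and 5 of the 48 were higher at an unadjusted p under 0.05 with no filter (Adamts15, Adamts16, Mmp3, Mmp7 and Mmp12), beside 4.14% of all genes. A contrast of KO against WT averaged over treatments was added after these values were seen. In it 3 members were higher and none lower, beside 0.423% of all genes called higher and 0.254% called lower: Adamts15 (limma, adjusted p = 0.0171, with no size given since 3 of its 4 WT arrays were under background), Mmp7 by 1.03 ± 0.18 (adjusted p = 0.0292) and Timp2 by 0.99 ± 0.19 (adjusted p = 0.0429). The smooth muscle markers moved with this contrast too, all 8 being higher in KO at an unadjusted p under 0.05 and none passing, and their part was not tested. Leaving out single arrays gave 0 to 4 calls among the members. Adamts15 was lost without WT DSS replicate 2 or either WT untreated array (adjusted p up to 0.0801). Mmp7 was lost under 7 of 18 alternatives (adjusted p up to 0.141), all of them leaving out arrays. Timp2 was lost under 10 of 18 (adjusted p up to 0.168), among them both other scalings and the replicate block.

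**Figure D3:**
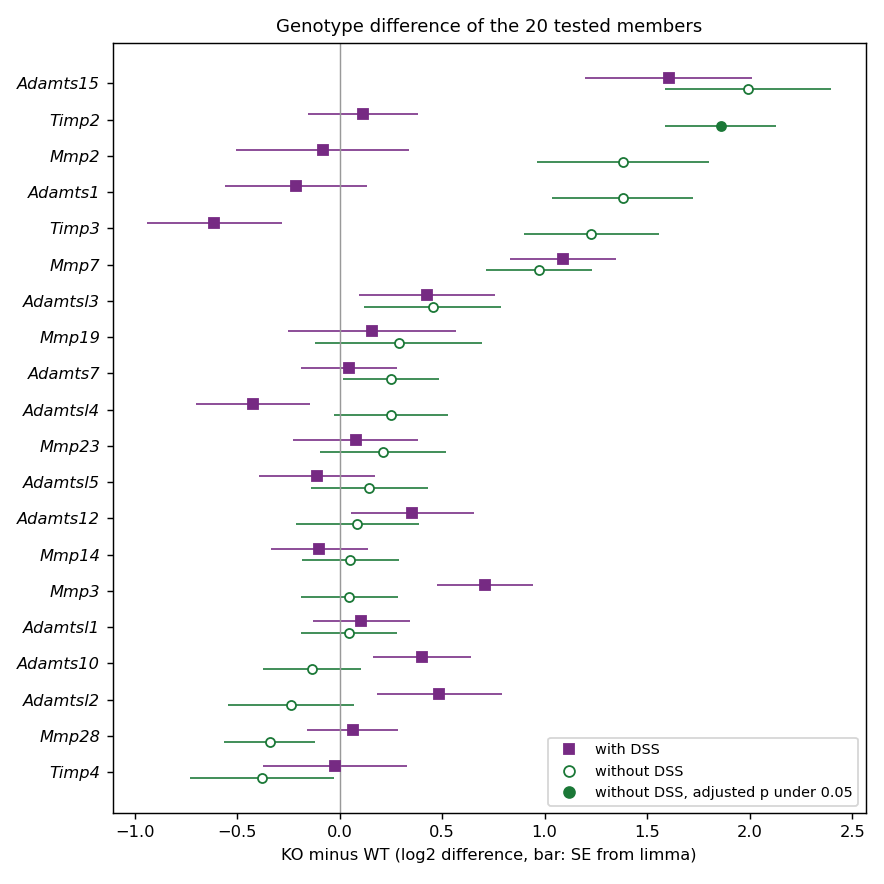
KO minus WT difference (x axis, log2 units, SE bars) of the 20 tested members (y axis), with DSS (squares) and without DSS (circles, filled where limma's adjusted p was under 0.05). Mmp7 lies at 1.09 with DSS and 0.97 without, and Adamts15 is to the right under both treatments, while Timp2, Mmp2, Adamts1 and Timp3 are to the right without DSS. Points of genes under background in a group, among them those of Adamts15 and Adamts1 without DSS, are fitted values whose size is not measured.

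Mmp7, Mmp3 and Mmp10 belong to a run of 10 neighbouring Mmp genes on chromosome 9, in the order Mmp13, Mmp12, Mmp1b, Mmp3, Mmp1a, Mmp10, Mmp8, Mmp27, Mmp20 and Mmp7, of which all but Mmp27 are among the members. Promoters in this run are known for an AP-1 site close to the start, and 7 of the 9 held the AP-1 letters, at 35 to 93 bases before the start. None of the 24 other members with a RefSeq promoter held them. The windows from 100 bases before to 20 bases after the start are shown for these 7 (GRCm38.p6, gene strand), with the AP-1 and TATA letters in capitals, so that their spacing can be compared. They lie at chr9:7464041-7464160 for Mmp1a, chr9:7388007-7388126 (minus strand) for Mmp1b, chr9:7445722-7445841 for Mmp3, chr9:7691990-7692109 for Mmp7, chr9:7502242-7502361 for Mmp10, chr9:7347274-7347393 for Mmp12 and chr9:7272414-7272533 for Mmp13.
Mmp1a: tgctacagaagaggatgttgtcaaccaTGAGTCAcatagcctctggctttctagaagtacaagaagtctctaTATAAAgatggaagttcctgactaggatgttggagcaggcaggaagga
Mmp1b: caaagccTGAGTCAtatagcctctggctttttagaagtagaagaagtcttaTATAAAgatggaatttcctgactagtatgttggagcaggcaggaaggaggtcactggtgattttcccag
Mmp3: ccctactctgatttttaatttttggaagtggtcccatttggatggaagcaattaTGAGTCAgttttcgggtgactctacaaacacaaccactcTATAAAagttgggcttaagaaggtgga
Mmp7: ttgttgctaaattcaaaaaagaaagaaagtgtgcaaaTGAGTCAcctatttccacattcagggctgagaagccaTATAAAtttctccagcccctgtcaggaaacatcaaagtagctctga
Mmp10: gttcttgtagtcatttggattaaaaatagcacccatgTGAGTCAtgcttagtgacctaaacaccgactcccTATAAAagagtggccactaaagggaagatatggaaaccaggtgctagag
Mmp12: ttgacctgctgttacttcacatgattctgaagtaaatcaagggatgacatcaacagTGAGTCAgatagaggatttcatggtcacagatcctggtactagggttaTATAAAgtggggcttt
Mmp13: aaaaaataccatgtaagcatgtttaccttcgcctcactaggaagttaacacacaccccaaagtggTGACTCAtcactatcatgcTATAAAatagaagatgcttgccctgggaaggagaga
All 9 promoters of the run held a TATA motif and none a GC box, while 3 of the 24 others held a TATA motif and 20 a GC box. Their GC content was 37.7 to 46.7% in the run and 53.3 to 80% elsewhere. Of these neighbours, Mmp3 and Mmp7 alone exceeded background on any array. Mmp12, the macrophage elastase, was highest on the KO DSS arrays at 5.63 and 5.30 and lay at 4.02 and 4.74 untreated in KO, 4.39 and 4.21 with DSS in WT and 3.76 and 4.27 untreated in WT, all under background. The collagenase Mmp13 lay at 4.32 to 5.61.

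**Figure D4:**
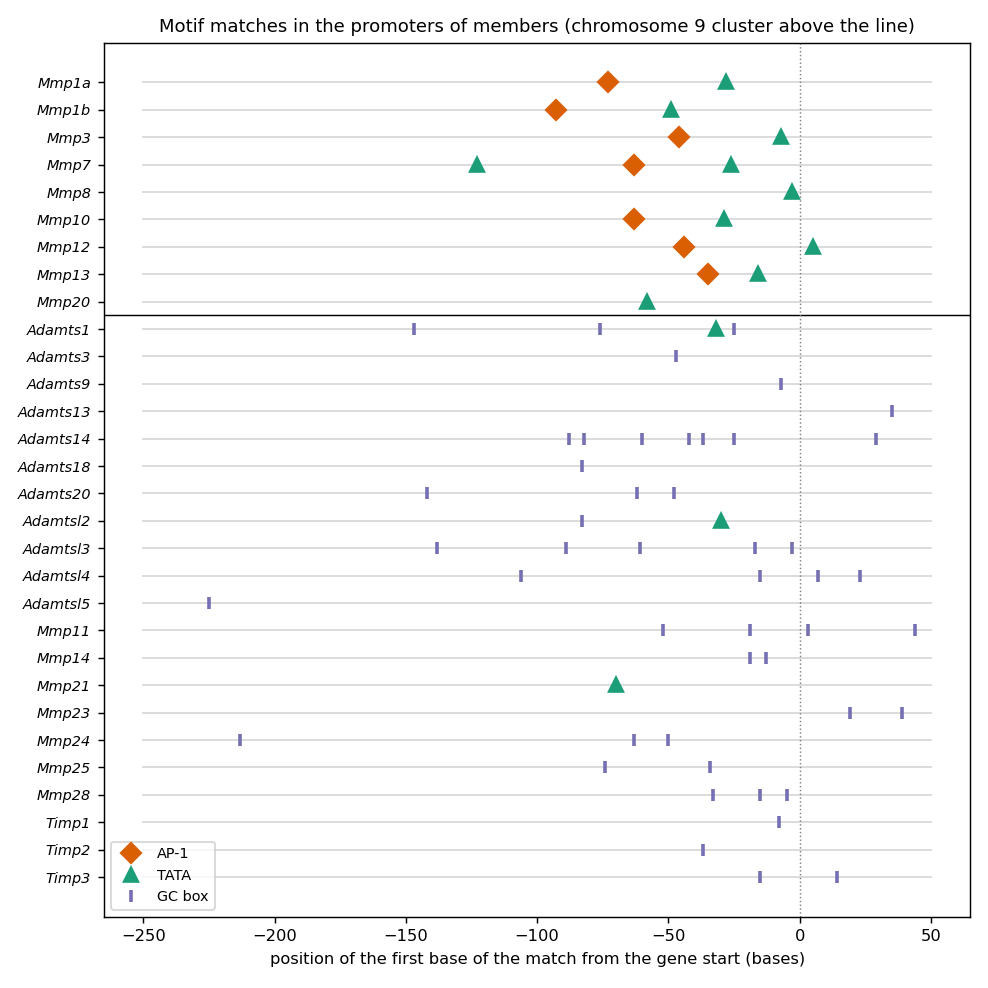
Position of AP-1, TATA and GC box letters (x axis, bases from the gene start) in the RefSeq promoters of members (y axis), each line spanning 250 bases before to 50 bases after the start; members with no match are not drawn. AP-1 letters appear in 7 of the 9 promoters of the chromosome 9 run, above the horizontal line, and in none below it.

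Mmp23, a small MMP released from the membrane, exceeded background on 1 DSS array of each genotype and on no untreated array, and did not pass for DSS averaged over genotypes (limma, adjusted p = 0.0527). None of the 5 ADAMTS-like proteins passed in limma in any comparison, and 2 of them, Adamtsl4 and Adamtsl5, were above background on all arrays at 6.77 to 7.98. Neither procollagen N-proteinase measured (Adamts3 and Adamts14) nor any of the 4 collagenases exceeded background. Among the 9 remaining ADAMTS, Adamts12 exceeded it on a single array, and Adamts13, which cuts von Willebrand factor, lay at 3.49 to 4.19. Over all 48 members the averaged DSS difference had a median of 0.19, against -0.02 over all genes. By this difference 37 members were higher and 11 lower, where 46.5% of all genes were higher. The 4 DSS arrays lay wholly above the 4 untreated arrays for 13 of the 48 and wholly below for 2, where 3.97% and 4.24% of all genes did so. These counts include members under background on every array.

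**Figure D5:**
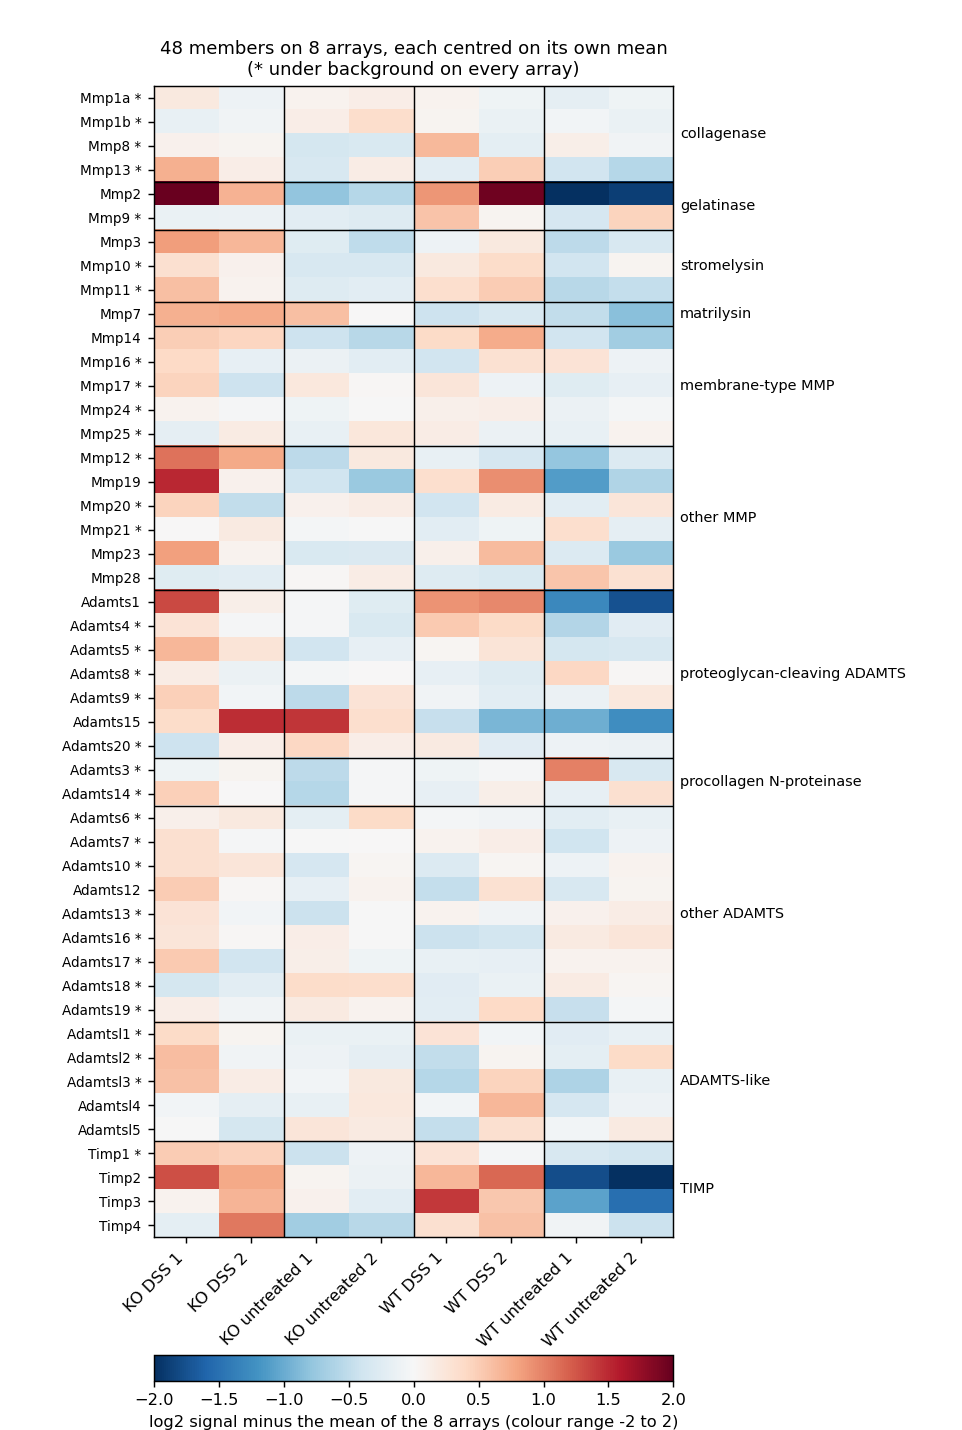
Signal of all 48 members (rows, grouped by role) on the 8 arrays (columns), as log2 signal minus the member's own mean, on a colour range from -2 to 2; asterisks mark the 33 members under background on every array. Mmp2, Timp2, Timp3 and Adamts1 stand out for low WT untreated arrays, and Adamts15 for high KO arrays.

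A list of 41 genes that activate, anchor, inhibit or neighbour these proteases was read beside them, of which 38 were on the array and 30 were tested. In WT 4 of the 30 rose with DSS, where 2.91% of all genes were called higher. Each rose from untreated arrays under background, so that the sizes are bounds. Plau, the urokinase that generates plasmin, was at least 2.99-fold higher (limma, adjusted p = 9.76e-05) and the procollagen processing enhancer Pcolce at least 3.56-fold (adjusted p = 0.000146). The collagen and elastin cross-linker Loxl1 was at least 1.76-fold higher (adjusted p = 0.00663) and the collagen-degrading cathepsin Ctsk at least 1.26-fold (adjusted p = 0.0177). In KO 3 rose: Pcolce by 1.54 ± 0.23 on the log2 scale (adjusted p = 0.0129), Lcn2, whose protein binds MMP9, by at least 1.37-fold (adjusted p = 0.0334) and Plau by at least 1.68-fold (adjusted p = 0.0478), the last 2 from untreated arrays under background. None fell in either genotype. Of all genes, 1.12% were called lower in WT and 0.931% were called in either direction in KO. Averaged over genotypes 9 rose and 1 fell, beside 3.47% of all genes called higher and 2.05% called lower. The 1 that fell was the epithelial metalloprotease Mep1b, at -0.81 ± 0.17 (limma, adjusted p = 0.0161). None passed in limma between KO and WT. At an unadjusted p under 0.05, 1 of the 30 was higher in KO with DSS, beside 4.14% of all genes with no filter. With DSS 3 were lower in KO, and without DSS 4 were higher. These last counts were not set beside all genes, so they do not show whether there was an excess.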

How the data were processed

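Per the labels, total RNA of colon epithelial cells was extracted with RNeasy columns, labelled with the WT PLUS kit and hybridised to 8 Affymetrix arrays, 1 per sample. The authors deposited signals that were taken here as log2 from their range. These were made with Affymetrix Expression Console, per the submitters' processing notes. Its version, the summary method and the normalization were not given in the sources used here. Of 28846 rows, 19572 carried 1 gene symbol. The row with the highest mean stood for each of 19505 genes. Arrays carry no read depth, so their number limits the precision.

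Group means were fitted with limma 3.58.1 in R 4.3.3 to all 8 arrays, two-sided, after the lowest 33.3% of genes by mean signal (under 5.15) were left out. With 2 arrays a group, p-values measure only the spread between these samples, which may be technical, and an exact permutation test of 2 against 2 cannot go below p = 0.333. Data were simulated for 13003 genes, 200 of them changed, with independent noise and no shifts shared across an array. There the fit of DSS in WT recovered 39.8% of changes of 1 and 99.2% of changes of 2 on the log2 scale. That of DSS in KO recovered 43.8% and 99.8%, and the interaction 5.2% and 80.6%. Of the calls, 7.95%, 6.14% and 4.45% were false in turn. The real arrays also differ in pancreas and other cell markers, so these shares may not hold for them. A group with every array under background and another with every array above it gave a bound: the brighter group's mean against, on each dim array, the higher of background and the probe's own signal.

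Members and lists were chosen with earlier results of these data known. Named members are those that passed in any of the 6 planned comparisons, those with a group mean above background and a difference of at least 1, and a fixed list of well-known members. Promoters came from RefSeq's GRCm38.p6 table, which matched 33 of the 48 members. Mmp15, Mmp27 and Adamts2 were not analysed here. Alternatives covered the filter, the row per gene, the scaling, the variance model, array weights, the arrays fitted, the threshold, a replicate block and arrays left out.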

Additional observations from a re-analysis of the deposited data

Results flagged for a closer look

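For 3 members the KO and WT arrays did not overlap under either treatment and the KO arrays lay below WT without DSS and above WT with DSS. Of all 19505 genes, 2.83% showed this crossing and 2.22% the opposite one, which no member showed. The interaction, the KO difference between treatments minus the WT one, did not pass for any of them. For Adamts16 it was 0.68 (limma with no filter, adjusted p = 0.935). Its signals were 4.43 and 4.21 with DSS and 4.32 and 4.17 untreated in KO, against 3.75 and 3.82 with DSS and 4.36 and 4.43 untreated in WT. For Adamts8 it was 0.46 (limma with no filter, adjusted p = 0.991), and every signal lay between 3.83 and 4.49. Both genes were under background on all arrays. For Mmp28 it was 0.40 (limma, adjusted p = 0.99), with the signals given above and 1 array above background.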

How the results depend on the processing

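For 77 differences of named members, 1409 alternatives were computed: 1286 kept direction and side of the threshold, 33 lost the call, 47 gained one, 43 changed sign with no call on either side, and none of the called values changed sign. Adamts1, Mmp2, Timp2 and Timp3 stayed called for DSS in WT under all 19 alternatives. The members called were 5 for DSS in WT (4 to 6 with 1 array left out), 7 for DSS averaged (5 to 8), 0 between KO and WT with DSS (0 to 0) and 0 for the interaction (0 to 0). For DSS in KO, where 0 were called, 1 passed with a stricter filter on low signals, 2 with a trend and robust variance model (Mmp2 and Mmp3), 1 with array weights, 2 at an adjusted p under 0.1 and 0 to 4 with 1 array left out. The highest of these came without KO DSS replicate 2, which left the pancreas-marked KO DSS array alone in its group. For KO against WT without DSS, where 1 was called, 2 passed with the trend and robust model, 5 with array weights, 5 with only the arrays compared, 2 at an adjusted p under 0.1 and 0 to 3 with 1 array left out, Adamts1 and Adamts15 joining Timp2 without either KO DSS array. Without both pancreas-marked DSS arrays, 7 members were called for DSS in WT, 2 for DSS in KO, 5 for KO against WT without DSS (Adamts1, Adamts15, Mmp2, Timp2 and Timp3), 9 for DSS averaged, 2 for the interaction and 1 for KO against WT averaged, where 3 were called (0 to 4 with 1 array left out). In that averaged genotype contrast Timp2 was lost under 10 of 18 alternatives and Mmp7 under 7. The causes were not tested. Over all genes, the calls with their range over all alternatives were 525 (215 to 988) for DSS in WT, 121 (14 to 297) for DSS in KO, 51 (3 to 252) for KO against WT without DSS, 46 (21 to 215) with DSS, 10 (5 to 36) for the interaction and 718 (396 to 1087) for DSS averaged. The replicate block gave 5 calls for DSS in WT, 0 for DSS in KO, 1 for KO against WT without DSS, 0 with DSS, 7 for DSS averaged and 0 for the interaction, the members called being those of the fit without it, and 2 for KO against WT averaged. Deviations of same-numbered arrays correlated at -0.246 to 0.276, so the numbers were not taken to pair samples. Signal over background limits 33 of the 48 members to upper limits.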

Other observations

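Several members had separated DSS and untreated arrays while under background on every array, and their values are given without a fold. Mmp11, stromelysin-3, measured 5.43 and 4.91 with DSS and 4.58 and 4.63 untreated in KO, against 5.17 and 5.34 with DSS and 4.28 and 4.36 untreated in WT. All 4 DSS arrays lay above all 4 untreated arrays, and with no filter it passed for DSS averaged over genotypes (limma, adjusted p = 0.0273), the single member below the filter to do so. Timp1, Adamts4, Adamts5, Adamtsl1 and Mmp10 also had every DSS array above every untreated array. Adamts18 had every DSS array below, at 4.74 and 4.87 with DSS and 5.45 and 5.43 untreated in KO, against 4.85 and 4.96 with DSS and 5.24 and 5.12 untreated in WT. Mmp11 and Adamts18 were chosen after their values were seen.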
